A study of Homo sapiens with 25 samples.

Results

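The RNAs recovered with the RQ mutant of IGF2BP1 were compared between arsenite-stressed and unstressed cells, using all 5 RNA immunoprecipitation (RIP) libraries of this mutant out of 25 in the series. Of these, 2 came from cells given 500 µM sodium arsenite for 2 h and 3 from cells given PBS, the diluent, as control. The host was HCT116, a human colorectal carcinoma line, and both groups carried the same genotype, mCherry-IGF2BP1 RQ with IGF2BP2 KO, IGF2BP3 KO and Tet-OsTIR1-PURO. In RQ, 4 arginines of the linker between the RNA recognition motifs and the KH domains are glutamines (R167Q, R168Q, R174Q and R178Q), and the study made it to ask what the low-affinity RNA contacts of that linker contribute. The same libraries exist for the wild-type protein, for S181E (phosphomimetic, in the same linker) and for Y396E (phosphomimetic, in the next linker), each with 3 control and 3 arsenite libraries, and these were used where a difference from RQ was tested. Parental HCT116 cells without any fusion, treated in the same 2 ways, gave 1 library each and show what the beads retained without the bait.

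IGF2BP1 is an RNA-binding protein of fetal tissue and many tumours that packs mRNAs into cytoplasmic granules and affects their localisation, stability and translation. Its KH domains recognise short CA- and GGAC-containing stretches, each domain with low affinity, and several domains together hold RNA with high affinity. The arginine- and glycine-rich linker touches RNA weakly. Arsenite, a thiol-reactive poison, unfolds proteins and raises oxidative load, which stops most translation initiation, drives released mRNAs into stress granules, and switches on heat shock, immediate early and amino acid stress genes.

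The stretch of the gene that encodes the changed residues is shown because the mutant is defined by it. It covers codons 166 to 179 of IGF2BP1 (ENSG00000159217.10, chromosome 17, 48997385 to 49056145, plus strand, hg38) and lies within a coding exon at chr17:49038262-49038303. The capitals mark the 4 arginine codons of the unmutated reference, in the order 167, 168, 174 and 178.
IGF2BP1, codons 166 to 179: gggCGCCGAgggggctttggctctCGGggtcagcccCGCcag

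As a model, RQ is a lentiviral transgene in a population sorted through a narrow mCherry gate, made in a line whose IGF2BP2 and IGF2BP3 knockouts were obtained as single-cell clones. The parental libraries differ from the RQ cells in both the fusion and the 2 knockouts. Dishes were plated and grown separately, but no source gives separate transductions, so the p-values measure the spread between such dishes. The libraries hold 28273651 to 60273548 counts in control and 34962014 and 44579091 counts in arsenite, and 12253 to 14565 protein-coding genes were detected. Log CPM correlated at 0.944 to 0.988 among controls, 0.992 between the arsenite libraries and 0.783 to 0.846 across treatments. RQ control replicate 3 had the fewest counts, the fewest detected genes and the lowest correlations within its group. Of 10 colon epithelial markers fixed as a check, 8 were tested, KRT8 among them at 278 to 912 CPM, while VIL1 and LGALS4 reached at most 0.738 and 0.140 CPM. None of 13 markers of blood, stromal, endothelial, muscle, liver or nerve cells was high enough to test. PTPRC, COL1A2, MS4A1 and CD3E were at 0 in all 5 libraries, and COL1A1 was the highest, at 7.55 to 12.3 CPM.

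The bait and its removed paralogs were examined first. IGF2BP1 was measured at 123, 107 and 103 CPM in the controls and at 81.7 and 79.6 CPM in the arsenite libraries (CPM is the count relative to the TMM-scaled protein-coding total of the library, on the usual per-mega scale). The arsenite values lay below every control, at a log2 fold change of -0.47 (SE 0.13, adjusted p = 0.0035; every adjusted p here is from edgeR's quasi-likelihood test after Benjamini-Hochberg adjustment over all genes tested). HCT116 cells do not make IGF2BP1, and the parental arsenite library held 0 counts for it, which allows up to 0.130 CPM (3 counts, counting error only). The mean of the RQ control libraries was thus about 855 times that limit and the mean of the RQ arsenite libraries about 621 times. Both means were set against the limit of the parental arsenite library. IGF2BP3 mRNA remained readable at 281, 279 and 305 CPM in control and fell to 148 and 151 CPM in arsenite (log2 fold change -0.95, adjusted p = 3.9e-09). IGF2BP2 gave 212, 185 and 294 CPM against 180.9 and 178.7 CPM, a difference that missed the threshold (adjusted p = 0.055). RNA reads do not show whether protein is made from an edited gene.

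Arsenite changed the recovery of most mRNAs. Among 8734 protein-coding genes with enough counts, 2826 (32.4% of those tested) were called higher and 2825 (32.3%) lower with a change over 20% and an adjusted p under 0.05, and the median log2 fold change was -0.004. A gene over the count limit only in arsenite libraries could not enter this set, whereas a gene over it only in controls could. By edgeR's quasi-likelihood test, 5951 genes passed an unadjusted p under 0.05. The 3 control and 2 arsenite libraries did not overlap in CPM for 6554 genes (75.04%), including 2804 of those called higher and 2737 of those called lower. The median change was 0.92 on the log2 scale among genes called higher and 0.84 in size among those called lower. Over 4-fold were 133 genes upward and 46 downward. Without RQ control replicate 3 the counts were 2807 and 2812. In these pooled lysates, fewer cells with an mRNA and less of it per cell cannot be told apart, nor can more mRNA in the cell and better retention by the bait, since total RNA was not analysed here.

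**Figure D1:**
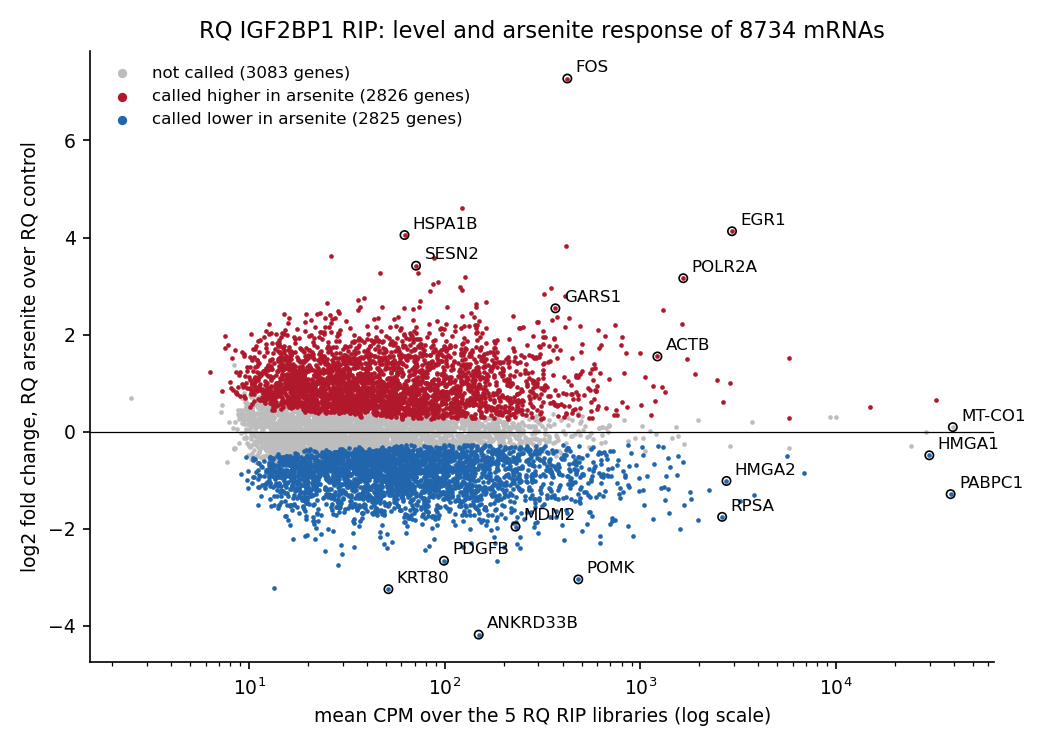
Each point is a tested gene, plotted by its mean level over the 5 RQ libraries (CPM, log axis) and its log2 fold change in RQ arsenite over RQ control; red marks the 2826 genes called higher, blue the 2825 called lower and grey the rest. FOS stands at 7.28 and ANKRD33B at -4.18 on the vertical axis, and both colours run across the whole range of levels.

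Among the genes tested, the steepest gains belonged to immediate early genes, which signalling cascades switch on within minutes. FOS (chromosome 14, 75278826 to 75282230, plus strand), a subunit of the AP-1 transcription factor, had 8.08, 8.26 and 3.15 CPM in control and 1015 and 1078 CPM in arsenite. The fitted difference was 155-fold (log2 fold change 7.28, SE 0.36, adjusted p = 1.2e-13), and FOS was low in each unstressed library. EGR1, a zinc finger activator, went from 395, 283 and 479 CPM to 7073 and 6447 CPM, 17.5-fold higher. EGR2, its relative, went from 12.6, 8.04 and 14.9 CPM to 308 and 267 CPM, 24.3-fold higher. FOSB, another AP-1 subunit, stood at 39.7 to 91.2 CPM in control and at 922 and 968 CPM in arsenite. In all 4 genes both arsenite libraries lay above every control, which the rule for picking the strongest gainers required. Of the 29 tested members of the immediate early list, 16 rose (55.2%) and 9 fell (31.0%), with a median log2 fold change of 0.41. The share that fell was near the 32.3% of all genes. FOSL2, an AP-1 subunit as well, was the strongest faller, from 178, 154 and 216 CPM to 35.5 and 35.3 CPM, 5.17-fold lower. DUSP5, a phosphatase that ends ERK signalling, fell by 0.63 on the log2 scale, whereas its relative DUSP1 rose by 3.27.

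Chaperone mRNAs rose almost as a block, with a median log2 fold change of 1.37. Of 23 tested members of the heat shock list, 19 were higher (82.6%) and 2 lower (8.70%), against 32.4% and 32.3% of all genes. HSPA1B, the inducible Hsp70, had 11.7, 7.64 and 5.77 CPM in control and 147 and 139 CPM in arsenite, 16.6-fold higher (adjusted p = 7.6e-13). Its neighbour HSPA1A is nearly identical in sequence, so the split of reads between the pair is uncertain. BAG3, a co-chaperone that feeds Hsp70 clients to autophagy, went from 46.9, 41.1 and 53.2 CPM to 292 and 292 CPM, and HSP90AB1, the constitutive cytosolic Hsp90, from 330, 301 and 269 CPM to 1221 and 1562 CPM. In these 3 genes the highest control lay below both arsenite libraries, which for HSPA1B the rule for picking the strongest gainers required. HSPE1, the mitochondrial co-chaperonin, was lower, at a log2 fold change of -0.998, and HSF1, the heat shock transcription factor itself, fell by 0.30.

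The amino acid arm of the stress response split by gene. Of 23 members of the ATF4 list 17 were tested, at a median of 1.22. Of these, 11 rose (64.7%, against 32.4% of all genes) and 3 fell (17.6%, against 32.3%). Summed over the tested members, the controls held 3012, 2973 and 3086 CPM and the arsenite libraries 3747 and 4199 CPM. With the 6 untested members included, the sums were 3030, 2989 and 3109 CPM and then 3950 and 4443 CPM. The untested members thus held more in arsenite than in control. SESN2, which encodes a leucine sensor that restrains mTORC1, had 16.4, 15.3 and 11.8 CPM in control and 144 and 169 CPM in arsenite, 10.7-fold higher (log2 fold change 3.42, SE 0.15, adjusted p = 2.4e-14). DDIT4, a further brake on mTORC1, and ATF3, a stress-induced repressor, rose by 3.27 and 3.18 on the log2 scale. ATF4 mRNA itself, the source of the programme, was lower, at 229, 230 and 196 CPM against 139 and 141 CPM. SLC7A11, the cystine importer, fell by 0.87, while SLC3A2, the heavy chain it pairs with, rose by 1.54. The enzymes that charge tRNAs moved together, with 18 of 20 aminoacyl-tRNA synthetases higher (90%), 1 lower (5%) and a median of 1.26. GARS1, for glycine, rose from 122, 110 and 144 CPM to 732 and 728 CPM, 5.82-fold, and VARS1, for valine, from 102, 107 and 70.9 CPM to 672 and 798 CPM, 7.83-fold. QARS1, for glutamine, was the exception that fell, by 0.38 on the log2 scale, and RARS1, for arginine, did not pass the test (log2 fold change 0.11, adjusted p = 0.60).

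Genes of the cell cycle mostly had higher RIP levels under stress. Of 33 tested, 26 rose (78.8%, against 32.4% of all genes) and 4 fell (12.1%, against 32.3%), and the median was 1.04. CCNA2, cyclin A2, had 51.8, 45.9 and 48.0 CPM in control and 291 and 243 CPM in arsenite, and CDC20, the activator of the anaphase-promoting complex, had 128, 132 and 95.3 CPM and then 551 and 586 CPM. E2F3 and E2F1, the factors that open S phase, went the other way, at -1.19 and -0.97. Among 31 tested proteasome subunits 14 rose (45.2%) and 1 fell (3.23%), with a median of 0.46, PSMD1 at 2.04 and PSMA7 at -0.42. POLR2A (chromosome 17, 7484366 to 7514179, plus strand), the catalytic subunit of RNA polymerase II, was in none of the lists and rose from 390, 311 and 485 CPM to 3932 and 3154 CPM, 8.95-fold. It stood 5.92 times above the parental arsenite library.

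The oxidative and metal stress list was divided evenly, with 8 of 21 tested members higher and 8 lower (38.1% each), shares near those of all genes (32.4% and 32.3%). HMOX1, haem oxygenase, rose from 6.50, 8.21 and 3.22 CPM to 16.9 and 21.3 CPM. SLC30A1, a zinc exporter, fell from 143, 125 and 116 CPM to 27.3 and 28.5 CPM. TXNRD1, thioredoxin reductase, and FTL, the ferritin light chain, fell by 1.44 and 1.30. Among 19 p53 targets 10 fell (52.6%) and 4 rose (21.1%). MDM2, the ligase that degrades p53, dropped from 313, 296 and 371 CPM to 85.3 and 83.2 CPM.

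At the other end stood ANKRD33B (chromosome 5, 10564070 to 10657816, plus strand), which encodes an ankyrin repeat protein. It had 217, 189 and 313 CPM in control and 13.7 and 12.7 CPM in arsenite, 18.2-fold lower (log2 fold change -4.18, SE 0.22, adjusted p = 3.2e-13). KRT80, an epithelial keratin, went from 69.6, 72.7 and 98.2 CPM to 7.72 and 9.21 CPM. POMK, a kinase that acts on the sugar chain of dystroglycan, went from 730, 535 and 959 CPM to 95.8 and 84.2 CPM. PDGFB, a growth factor, had 143, 150 and 155 CPM and then 24.29 and 23.02 CPM, and NUDT3, a diphosphoinositol phosphatase, 340, 308 and 429 CPM and then 72.7 and 64.5 CPM. In each of these 5 genes both arsenite libraries lay under the lowest control, which the rule for picking the 12 strongest fallers required. The remaining 7 of the 12 strongest fallers (ARHGDIB, C1orf116, PARD6B, YOD1, ZBTB34, CLCF1 and PLCXD2) ranged from -3.23 to -2.39. Of these 12 mRNAs, 9 have an annotated 3′ UTR longer than the median of all genes tested (1534 bases), such as 7703 bases in ANKRD33B and 9074 bases in NUDT3. POMK, ARHGDIB and CLCF1 have shorter ones, of 557, 491 and 968 bases.

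The mRNAs of cytosolic ribosomal proteins fell with few exceptions. Of 76 tested, 71 were lower (93.4%, against 32.3% of all genes) and 0 higher (against 32.4%), and 5 missed the threshold. The median log2 fold change was -0.91. RPL41, the smallest of them, had 1022, 932 and 746 CPM in control and 226 and 180 CPM in arsenite (adjusted p = 1.1e-07), and RPSA, on the small subunit, had 3724, 4414 and 2773 CPM and then 1021 and 1139 CPM. Summed over the list, the controls held 55096, 67435 and 38656 CPM and the arsenite libraries 24963 and 28092 CPM. The controls varied widely, but the lowest of them lay above both arsenite libraries. FAU, RPS9 and RPL8 showed the smallest values, -0.19, -0.12 and -0.09, none past the threshold. Many ribosomal protein genes have processed copies in the genome, so their counts depend on how shared reads were treated. The share of counts on mitochondrial rRNA fell alongside, from 36.5% ± 1.43 (SD, n = 3) to 28.8% and 30.1%, and that on protein-coding genes rose from 61.9% ± 1.36 (SD, n = 3) to 68.7% and 70.1%. With 3 libraries against 2, the smallest two-sided exact permutation p is 0.2, which both shares had. The part of these shares in the gene results was not tested.

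Zinc finger genes of chromosome 19, a large family of KRAB repressors for the most part, also fell. Of 59 tested, 35 were lower (59.3%, against 32.3% of all genes) and 5 higher (8.47%, against 32.4%), and the median was -0.66. ZNF121 went from 580, 450 and 665 CPM to 158 and 142 CPM, and ZNF562, with an annotated 3′ UTR of 11142 bases, from 290, 255 and 400 CPM to 91.6 and 80.1 CPM. ZNF579 and ZNF580, whose 3′ UTRs have 1177 and 443 bases, were higher, at 0.86 and 0.62. Among replication-dependent histones 13 of 37 tested (35.1%) were lower, a share near the 32.3% of all genes, 1 was higher and the median was -0.60. Their control libraries were scattered, H2BC14 for instance at 26.5, 35.5 and 15.0 CPM against 9.12 and 8.51 CPM, and near-identical copies share reads. The gene that rose was H3C12, at 0.62.

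Among mRNAs long known to bind IGF2BP1, 19 of 24 were tested, with a median of -0.39. Of these, 10 fell (52.6%, against 32.3% of all genes) and 5 rose (26.3%, against 32.4%). PABPC1, the cytoplasmic poly(A)-binding protein, which took more counts than any other mRNA in each control library, had 48716, 44362 and 57933 CPM and then 21682 and 19647 CPM, 2.44-fold lower (adjusted p = 3.3e-08). HMGA1, a chromatin protein, went from 35459, 34153 and 31752 CPM to 24335 and 23995 CPM, and HMGA2, its oncofetal relative, from 3490, 3138 and 3711 CPM to 1848 and 1568 CPM. CDK6, a G1 kinase, and SRF, the serum response factor, fell by 1.71 and 1.48. Despite their losses PABPC1, HMGA1 and HMGA2 stood 10.1, 14.4 and 9.71 times above the parental arsenite library. ACTB, beta-actin, rose from 741, 852 and 470 CPM to 1908 and 2130 CPM, yet its parental arsenite level was 3084 CPM. CTNNB1, beta-catenin, rose by 2.19, with a level 0.879 times the parental one. MYC gave 661, 705 and 632 CPM against 534 and 608 CPM, a difference that missed the threshold (adjusted p = 0.059).

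The other genes that the study singled out were likewise mixed. PHC3, a Polycomb subunit, had 759, 755 and 845 CPM and then 450 and 406 CPM. LIPA, lysosomal acid lipase, and XBP1, an unfolded protein response factor, rose by 1.14 and 0.78. EIF2A, an alternative initiation factor, fell by 0.29. CCDC127 and IGF2 were under the count limit, at 11.3 to 17.9 and 2.88 to 6.99 CPM in control and 3.74 to 6.38 and 14.0 CPM in arsenite, and were not tested. The study named PHC3, LIPA and CCDC127, like GARS1, HMGA2 and PABPC1, from its own RIP data of this series, so the directions of these genes are not independent evidence.

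All 30 mRNAs listed for core proteins of stress granules were tested (median 0.21). Of these, 14 rose (46.7%, against 32.4% of all genes) and 7 fell (23.3%, against 32.3%). UBAP2L and ATXN2L, scaffold proteins, rose to 1131 and 1047 CPM from 271 to 362 CPM, and to 1719 and 1623 CPM from 462 to 613 CPM, standing 5.65 and 8.44 times above the parental arsenite library. NUFIP2, a partner of the granule, fell from 363, 363 and 479 CPM to 153 and 148 CPM. Among 33 translation factors 12 rose and 10 fell (36.4% and 30.3%), about the shares of all genes. EIF4E, the cap-binding protein, went from 210, 189 and 191 CPM to 63.1 and 69.7 CPM, while EIF4G1, the scaffold it binds, went from 174, 114 and 187 CPM to 412 and 417 CPM. Among 30 genes of mRNA decay and microRNA silencing 11 rose and 10 fell (36.7% and 33.3%), again near the shares of all genes, with PAN2, a deadenylase subunit, at 2.66 and DCP2, the decapping enzyme, at -1.59.

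Mitochondrial genes showed no common direction. Of the 13 mRNAs encoded in mitochondrial DNA 3 rose, 3 fell (23.1% each) and 7 missed the threshold. Of the same 13, 12 were at least 4-fold over the parental arsenite library. MT-ND4 had 21954, 20602 and 36503 CPM in control and 42748 and 40673 CPM in arsenite (log2 fold change 0.66, adjusted p = 0.026). Taken as a share of protein-coding counts, these mRNAs made up 15.0% ± 2.56 (SD, n = 3) in control and 17.2% and 17.3% in arsenite, and the groups overlapped (two-sided exact permutation p = 0.6). Nuclear-encoded subunits of the respiratory chain counted 12 higher and 19 lower of 66, and mitochondrial ribosomal proteins 11 higher and 13 lower of 61. ATP5F1B, the catalytic beta subunit of ATP synthase, rose from 324, 362 and 223 CPM to 1065 and 1311 CPM.

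The response followed the layout of the transcript. Coding and 3′ UTR lengths were read from the annotated representative transcript of each gene. Genes called higher had a median coding length of 1912.5 bases and those called lower 1077 bases, against 1458 for all genes tested. For the 3′ UTR the order was reversed, 1027.5 bases among the higher genes and 2470 among the lower ones. The 3′ UTR made up a median 32.7% of the transcript in the former and 63.4% in the latter. With the genes in 5 equal bins from the shortest to the longest coding region, the median log2 fold change went through -0.55, -0.10, 0.13, 0.31 and 0.34. The share called lower dropped from 56.4% to 20.0% along that order. In bins from the shortest to the longest 3′ UTR the medians were 0.27, 0.33, 0.12, -0.17 and -0.50. Total exonic length showed less of a trend, at -0.04, 0.23, 0.11, -0.08 and -0.22.

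Both lengths counted together. Among 840 genes in the upper tertile of coding length and the lower tertile of 3′ UTR length (under 893 bases), the median was 0.85, with 65.8% called higher and 8.69% lower. Among 811 genes with the opposite layout (3′ UTR over 2428 bases) the median was -0.78, with 4.44% called higher and 72.3% lower. Across genes the Spearman correlation with the log2 fold change was 0.36 for coding length, -0.33 for 3′ UTR length and -0.46 for the 3′ UTR share of the transcript (8734 genes that share the same libraries, a description without a p). The same gap was visible in single libraries. The median log2 CPM of the bin with the longest 3′ UTRs minus that of the shortest was 0.93, 0.66 and 1.33 in the controls and 0.27 and 0.08 in the arsenite libraries. For coding length it was -0.34, -0.62 and -0.06 in the controls and 0.58 and 0.52 in arsenite. Neither measure overlapped between the groups (two-sided exact permutation p = 0.2, the smallest possible). In the parental cells the coding gap also differed between treatments, at -0.07 in the control and 0.58 in the arsenite library, whereas the 3′ UTR gap was -0.51 and -0.28. The parental control library held only 1238013 counts and 5686 detected protein-coding genes, against 18942497 and 11988 in the parental arsenite library. Its gaps are therefore uncertain and the parental treatments are not an equal comparison. Short motifs tied to the KH domains were counted on the sense strand of 8484 3′ UTRs, where copies may overlap. The tetramer GGAC, present in 88.8% of these UTRs, had a median density of 2.61 per kb in genes called higher and 2.11 per kb in those called lower. For CATA, present in 84.2%, the medians were 2.31 and 3.24 per kb. CATT was present in 92.7%, at 4.72 and 5.86 per kb, and CATC in 90.5%, at 3.15 and 3.11 per kb. Nearly every UTR held each motif, and a match is no binding site in itself.

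**Figure D2:**
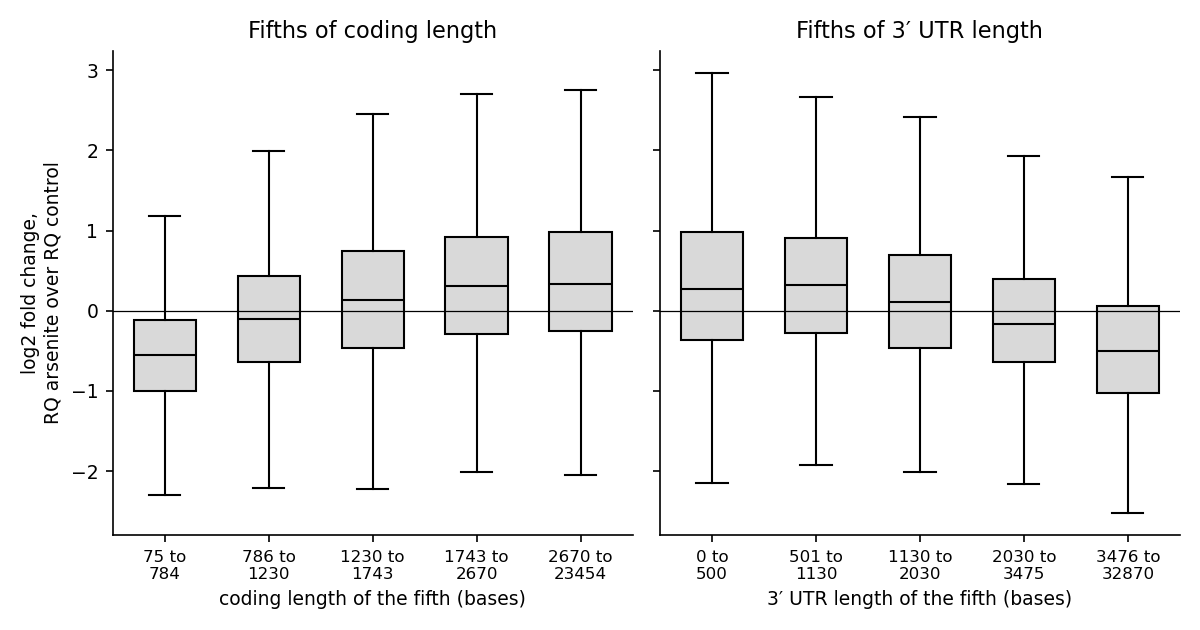
Boxes give the log2 fold change in RQ arsenite over RQ control (median, quartiles and whiskers) in 5 equal bins of the tested genes by coding length (left) and by 3′ UTR length (right), with the range of lengths in bases under each box. The medians climb from -0.55 to 0.34 with coding length and drop from 0.27 to -0.50 with 3′ UTR length.

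How far the recovered mRNAs stood above the bead background was set against the change. The arsenite level in RQ cells was at least 4 times that of the parental arsenite library for 280 genes called higher (9.91%) and 231 called lower (8.18%), against 8.36% of all genes tested. It was at or below the parental level for 1179 (41.7%) and 1110 (39.3%), against 42.2% of all genes tested. EGR1, GARS1 and CCNA2 stood at 3.72, 4.66 and 4.55 times that level, and FOS, HSPA1B and HSP90AB1 at 0.824, 0.303 and 0.401 times. In heat shock chaperones, aminoacyl-tRNA synthetases, cell cycle genes and proteasome subunits the median ratio to it was 0.562, 0.769, 0.887 and 0.486. At least 4 times the parental level were 0 of 23, 1 of 20, 1 of 33 and 1 of 31 tested members. Cytosolic ribosomal proteins had a median of 0.616 with 0 of 76, mitochondrially encoded mRNAs 23.4 with 12 of 13, and all genes 1.15. The arsenite level in these ratios moves with the response itself. Genes were also binned by the wild-type mean over both treatments, divided by the parental arsenite level (8700 genes in 5 equal bins). From low to high the median log2 fold changes in RQ were 0.52, 0.19, -0.10, -0.25 and -0.39. The share called higher went from 50.3% to 21.4% and that called lower from 11.1% to 49.9%. The divisor is itself an arsenite library, and the cause was not tested. In 1210 genes the RQ control or the RQ arsenite mean was 4 or more times the parental arsenite value, and of these 287 were called higher and 686 lower. That set is chosen in part on the control level, which by construction can favour genes that fell. With a single parental library per treatment this background has no replicate check, and CPM are relative to each library's own total.

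The response with the RQ bait was close to that with the wild-type bait. The wild-type comparison called 3095 genes higher (35.4%) and 2780 lower (31.8%). It shared 2540 higher genes with RQ (89.9% of the RQ genes and 82.1% of the wild-type ones) and 2424 lower genes (85.8% and 87.2%). Across the 8734 genes, which share no library between the comparisons, the log2 fold changes correlated at 0.94 (Pearson, a description), and 90.1% had the same sign. Only 5 genes were called in opposite directions, RUSC1, TBC1D17 and PPDPF up and FBXO5 and HSPA13 down in RQ (named after their values were seen), none with a difference past the threshold (adjusted p 0.074 to 0.21). The 3′ UTR gap narrowed by 0.80 in RQ and by 0.56, 0.82 and 0.82 in wild type, S181E and Y396E, and the coding gap moved from below 0 to above 0 in the group means of each line, by 0.89, 0.88, 0.78 and 0.72.

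The difference between the RQ and wild-type responses was tested for every gene, and 6 passed (0.0687% of those tested, by edgeR after Benjamini-Hochberg adjustment, with 844 at an unadjusted p under 0.05). The unadjusted 95% interval of this difference reached 0.48 log2 units to either side in the median gene, and differences well above that also missed the threshold, such as 0.99 in EGR2 and 0.95 in HSPA1B (adjusted p = 0.25 in both). SESN2 differed most, with 64.6, 70.1 and 73.0 CPM in wild-type arsenite against 144 and 169 CPM in RQ arsenite, from controls of 15.2 to 19.7 and 11.8 to 16.4 CPM. Its response was larger in RQ by 1.43 (SE 0.20, adjusted p = 0.0015). SLC3A2 rose from 140, 155 and 134 to 375 and 461 CPM in RQ and from 135, 145 and 151 to 216, 237 and 238 CPM in wild type, a difference of 0.87 (SE 0.14, adjusted p = 0.0075). In both genes the control libraries of the lines lay close together and the arsenite libraries did not. DSP, desmoplakin of cell junctions, had 114, 106 and 89.5 CPM in RQ control and 191, 281 and 203 CPM in wild-type control, but 94.5 to 107 CPM in all arsenite libraries of both, so the difference of 1.01 (adjusted p = 0.021) came with unequal controls. FAM193B and IER3, an early response gene, fell less in RQ, by 0.91 and 0.82, and MRPS10, of the mitochondrial ribosome, fell by 0.70 in RQ and had a log2 fold change of 0.08 in wild type (difference -0.78, adjusted p = 0.023). The controls were unequal in FAM193B, at 64.6 to 75.5 CPM in RQ and 114.7 to 115.0 CPM in wild type, and in MRPS10, at 103 to 112 and 61.1 to 75.1 CPM. IER3 had overlapping controls, at 1031 to 1175 and 1076 to 1258 CPM, and arsenite values of 691 and 698 CPM in RQ against 410 to 417 CPM in wild type. No gene was called without RQ arsenite replicate 2 or with a spread estimated from these lines alone. Without RQ arsenite replicate 1, 2 genes were called. With the replicate number as a block in the fit, 21 genes were called higher and 22 lower. Leaving out wild-type control replicate 1, 2 or 3 gave 10, 13 and 11 higher and 14, 19 and 8 lower, and leaving out wild-type arsenite replicate 1, 2 or 3 gave 1, 2 and 2 higher and 0 lower.

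**Figure D3:**
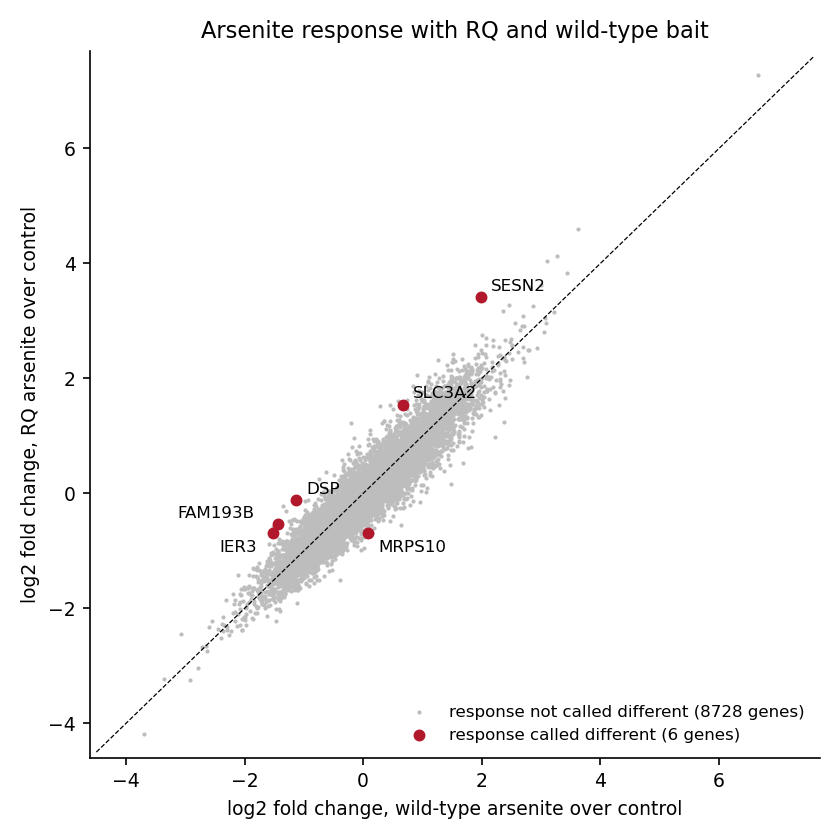
Each point is a tested gene at its log2 fold change, arsenite over control, with the wild-type bait (horizontal) and with the RQ bait (vertical); the dashed line marks equal change and red the 6 genes whose change differed. The cloud follows the line, and SESN2 lies above it at 3.42 against 1.99.

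Against the phosphomimetic mutants, whose comparisons with RQ use the same 5 RQ libraries, 12 genes differed from S181E (0.137%) and 34 from Y396E (0.389%). SESN2 again had the larger response in RQ, by 1.71 over S181E (adjusted p = 7.6e-05) and by 1.95 over Y396E (adjusted p = 5.8e-06). SLC3A2 exceeded them by 0.76 and 0.75, and ATF3 by 1.23 and 1.28, while its excess over wild type, 0.82, missed the threshold (adjusted p = 0.080). KRT80 fell by 3.25 in RQ and by 2.02 and 1.79 in S181E and Y396E, and JUN rose by 2.97 against 4.15 and 4.08. Those 2 genes changed by -2.92 and 3.09 with the wild-type bait, and neither difference from RQ passed the test there (adjusted p = 0.69 and 0.90). CCNA2 rose by 2.45 in RQ and by 1.04 in Y396E (adjusted p of the difference = 0.00019). ATF3, KRT80, JUN and CCNA2 were singled out here after their values were seen. Without RQ arsenite replicate 1 or 2 the calls fell to 3 and 4 against S181E and to 4 and 10 against Y396E, and without RQ control replicate 1 or 2 to 13 and 18 against Y396E. With the replicate number as a block they rose to 64 against S181E and 223 against Y396E.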

How the data were processed

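The deposited files hold raw counts per gene, made by the authors. Per the labels and methods, RFP-trap beads pulled down mCherry, RNA was depleted of rRNA and libraries were directional and single-read. The submitters' notes name STAR 2.7.11b with hg38 and featureCounts from Subread 2.0.6 (exons, reverse strand per the file headers), besides FastQC 0.11.9 and bcl2fastq 2.20.0.422. Reads that align to several genes and free RNA on beads can affect such counts. Gene names, biotypes and transcript lengths came from an hg38 GENCODE annotation that held 62541 of the 63086 gene identifiers.

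The 8734 protein-coding genes that passed 10 CPM in 12 or more mCherry libraries (of 23) entered edgeR 4.0.16 (TMM, glmQLFTest) in R 4.3.3, with limma 3.58.1. The control libraries are numerous enough to meet that limit alone and the arsenite libraries are not. Genes over 10 CPM only under arsenite were thus left out. One fit of 8 groups shared the spread and no covariate was used. Calls needed a Benjamini-Hochberg adjusted p under 0.05 and a change over 20%. Differences between responses were interaction contrasts. Exact permutation tests were two-sided (scipy 1.17.1). DESeq2 1.42.0, other scalings and filters, a replicate block and leaving out each RQ and wild-type library in turn were tried as alternatives. Scripts were tested on simulated data. That simulation changed few genes, in RQ arsenite only, and held no pattern by replicate number, so it does not cover changes as broad as those seen here. Totals per library are in the report; the number of libraries, more than counting error, limits precision.

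Named genes were the 12 strongest of each direction with groups apart and over 20 CPM in the higher group, the 3 highest and lowest of each list, the strongest differences from wild type, the IGF2BP genes, the 5 most abundant, and the genes the study singled out. Members and lists were chosen with earlier results of these data known. Replicate numbers were not taken as pairs. No 2 libraries were identical.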

Additional observations from a re-analysis of the deposited data

Results flagged for a closer look

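The response to arsenite differed between the RQ and wild-type baits, by the interaction test in edgeR, for 6 genes. Their log2 differences, RQ minus wild type, were 1.43 in SESN2, 1.01 in DSP, 0.91 in FAM193B, 0.87 in SLC3A2, 0.82 in IER3 and -0.78 in MRPS10. The same test found 12 genes between RQ and S181E and 34 between RQ and Y396E. These counts rest on 2 RQ arsenite libraries and on a fit without the replicate number. With that number as a block, 21 genes were higher and 22 lower against wild type, 64 differed from S181E and 223 from Y396E.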

How the results depend on the processing

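The 2826 and 2825 genes called higher and lower in RQ kept within 1.5 times of those counts in every alternative but the restriction to genes at least 4-fold over the parental arsenite library (287 and 686). Leaving out each library gave 2397 to 2836 and 2332 to 2812, and no gene changed direction. Of 146 named genes, 127 kept their side of the threshold in all 11 alternatives run for single genes (scalings, DESeq2, only the groups compared, the block and the 5 left-out RQ libraries) and none reversed, and no list median changed sign under another scaling. The differences between baits were less stable, and the cause was not tested. Against wild type, 5 higher and 1 lower became 38 and 33 with DESeq2's Wald test, 3 and 3 with total counts as the scale, 4 and 0 with TMM over background genes, 1 and 0 with glmTreat, 6 and 3 with filterByExpr, 7 and 3 without a filter, 5 and 6 with all biotypes, 2 and 0 in the genes over the parental level, and 0 and 0 with only the groups compared (0 by edgeR at an adjusted p under 0.05). Leaving out each library gave 0 to 13 and 0 to 19. For S181E and Y396E, 12 and 34 calls became 53 and 92 (DESeq2), 14 and 54 (total counts), 6 and 19 (background TMM), 2 and 4 (glmTreat), 9 and 13 (filterByExpr), 10 and 23 (no filter), 1 and 10 (over parental), 3 and 3 (only the groups compared), with 3 to 13 and 4 to 39 over left-out RQ libraries (those of S181E and Y396E were not left out). The replicate block gave 2995 and 2977 genes in RQ, 21 and 22 against wild type, 64 against S181E and 223 against Y396E. The numbers were not taken as pairs in the main fit. Same-numbered RQ libraries deviated together at -0.12 and 0.45, and over any pair of groups 53 of 77 same-number correlations passed 0.1 (range -0.12 to 0.57). The numbers also carried a pattern in the gaps. The 3′ UTR gap and the coding gap ran in the order 3, 1, 2 in all 7 groups with 3 libraries. In RQ arsenite they ran 1 over 2. The main counts of differences between baits leave that shared pattern in the spread, and its source was not tested.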

Other observations

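In each of the 4 mCherry lines, the control library numbered 3 had the widest gap between long and short 3′ UTRs (median log2 CPM of the bin of longest minus the bin of shortest UTRs): 1.33 in RQ, 1.21 in wild type, 1.38 in S181E and 0.95 in Y396E, against 0.93 and 0.66 in the other RQ controls.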
